A study of Arabidopsis thaliana with 4 samples.

Results

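The block described here was a stretch of 10 consecutive 96-well plates, TA21 to TA30, of a spotted array on which the histone mark H3K9me2 was mapped in Arabidopsis thaliana seedlings. Its members were the 885 features whose identifier is TA, a plate number from 21 to 30, a row letter and a column number, and that had a value on all 4 arrays, out of 21727 measured features. The plates had been delimited on the same ratios that are given below, so the levels, counts and calls of the block are descriptions and carry no test.

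Chromatin came from whole Col-0 seedlings of 11 days, grown untreated in liquid MS medium of 0.5 strength at 22 °C under a 16 h photoperiod. DNA immunoprecipitated with an antibody against H3K9me2 (IP) was set against the input DNA from which it came on 2-colour arrays. There were 2 preparations, replicate 1 and replicate 2, each on a pair of arrays that differed in which dye, Cy3 or Cy5, marked the IP. Separate cultures for the preparations are not stated, and whole seedlings mix all their cell types in 1 value. The values are ratios on a log scale whose base is not given in the sources used here, and each replicate was centred on its median over all measured features. A value is therefore a distance from the array median in log units.

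The dye-exchanged columns of a replicate held identical values, with 0 differing features in each replicate, so each replicate counted as 1 sample and n = 2. Identical values under exchanged dyes leave the direction of the ratio unsettled. "High" and "low" below refer to the deposited ratio and are not statements on how much of the mark a feature carried. The files pair the features with no gene, position or sequence, so the order used is that of plate, row and column.

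H3K9me2 is placed by histone methyltransferases of the SUVH family, among them KRYPTONITE, and is a hallmark of silent chromatin in plants. Chromomethylases bind the mark and methylate cytosines outside CG sites, and the methylated DNA in turn attracts the SUVH enzymes. In Arabidopsis the mark is known above all from transposons and repeats, in the heterochromatin around the centromeres, in heterochromatic knobs and in smaller islands among genes.

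The block was not evenly high. In part it was a series of high domains separated by sharply bounded gaps in which the ratio returned to about the array median. Other high stretches were parted by dips that stopped above the array median. The median over the 885 features was 1.93 units in replicate 1 and 1.70 units in replicate 2, and 1.82 units for the mean of the replicates, with quartiles of 0.73 and 2.51 units. By the mean of the replicates, 524 features (59.2%) were high, with at least 1.5 units, against 16.4% of all features of the array. Another 169 (19.1%) were intermediate, between 0.5 and 1.5 units, against 10.9% of the array. The remaining 192 (21.7%) were low, under 0.5 units, against 72.7% of the array. The high features had medians of 2.64 units in replicate 1 and 2.20 units in replicate 2. Among the low features the median was 0.10 units in each.

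Of the 885 features, 588 (66.4%) passed 1 unit above the median in each replicate, against 19.2% over the array. In the limma fit over all features, with an adjusted p under 0.05 as the limit, 717 features of the block were called above the median and 9 below. Over the array it called 28.9% above and 11.7% below. Since the plates were chosen for high ratios, nothing is read from these gaps to the array. The 9 calls below lay in 3 plates, with 4 in TA21, 4 in TA27 and 1 in TA28. Their number rested on the settings: it was 258 without centring, 1 with centring on the mode, 3 at an adjusted p under 0.01 and 0 with limma's treat against 0.5 units. No feature of the block (0) lay at least 1 unit below the median in both replicates, where 0.0690% of the array did.

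**Figure D1:**
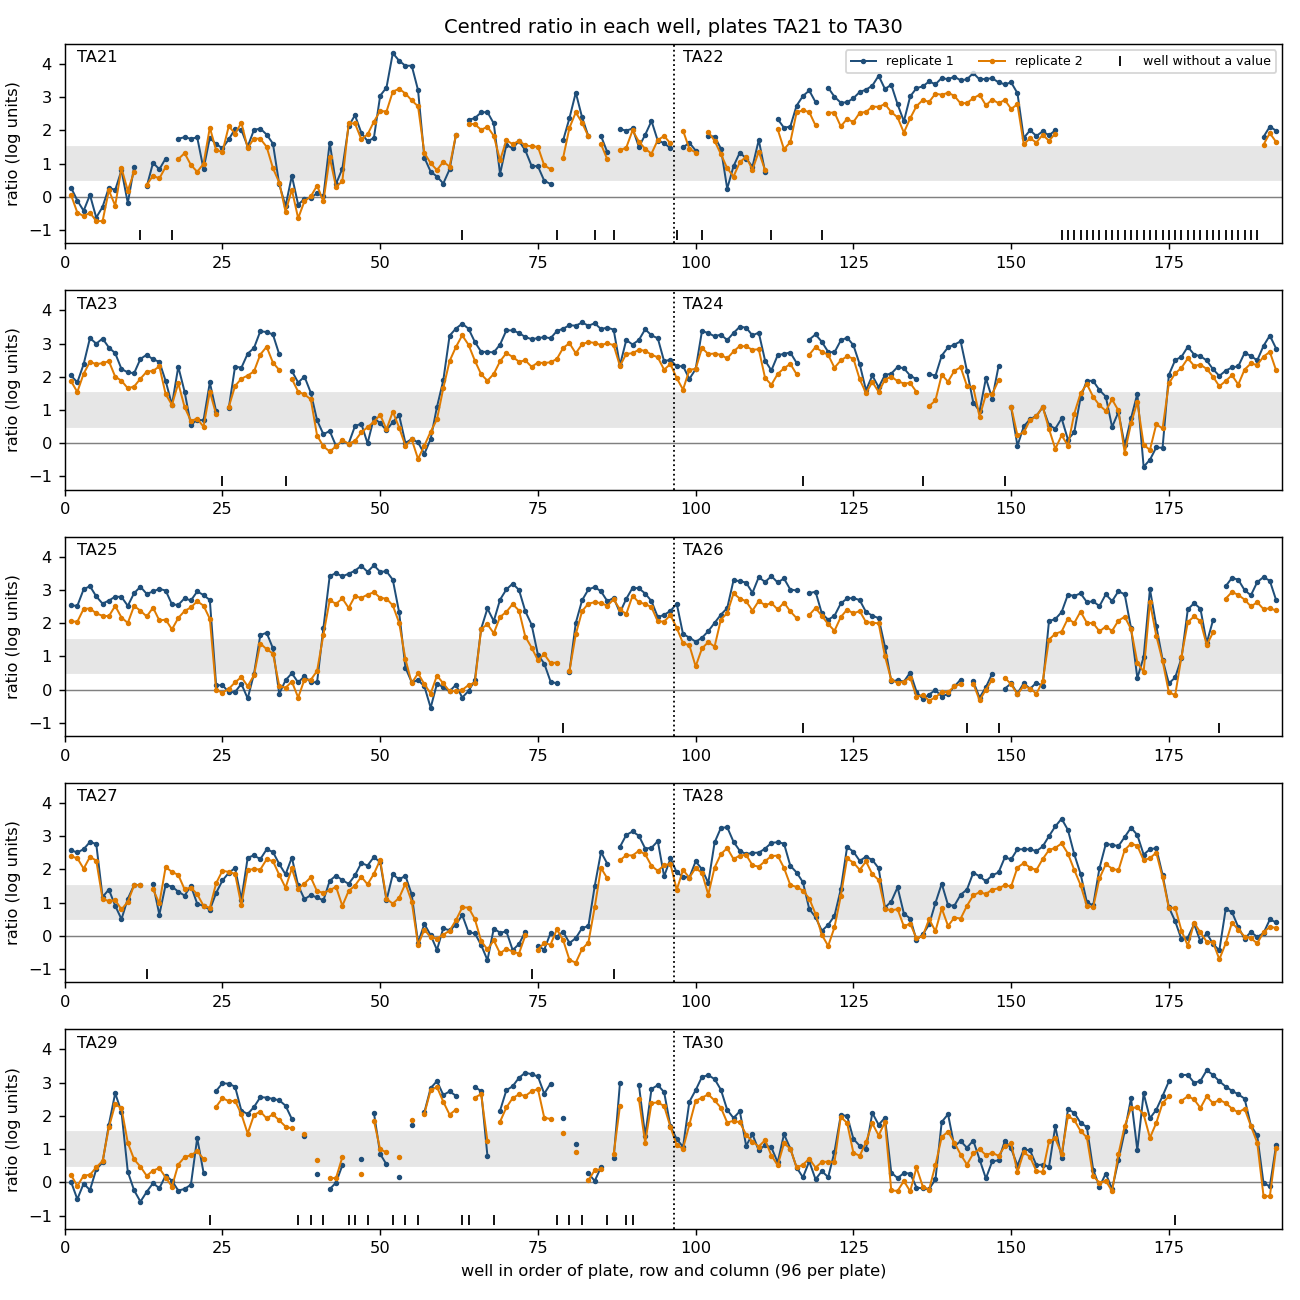
Centred ratio (vertical axis, log units) in each well in order of plate, row and column (horizontal axis), a pair of plates per panel, for replicate 1 and replicate 2. The grey band marks 0.5 to 1.5 units and ticks mark wells without a value. High domains of up to 57 wells stand beside gaps near 0 units, and the replicates trace the same domains.

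All 10 plates held high features, and each had at least 1 feature with a mean of 2.5 units or more. The plate medians ran between 1.17 units in TA30 and 2.60 units in TA22. TA22 had medians of 2.85 units in replicate 1 and 2.35 units in replicate 2, and none of its 60 measured features was low (0 of 60). The other 36 wells of TA22 had no value, so their level is unknown. TA23, TA25, TA26 and TA24 followed with plate medians of 2.34, 2.29, 2.09 and 2.07 units. TA29 and TA28 had 1.76 and 1.68 units, TA21 and TA27 had 1.48 and 1.42 units. The order of the plates was nearly the same in the replicates, with a Spearman correlation of 0.988 over the 10 plate medians, which share the array and its centring. In each of the 10 plates the median of replicate 2 lay below that of replicate 1.

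The plates also differed in make-up. TA25 and TA26 were split into extremes, with 62 high, 7 intermediate and 26 low features in TA25 and 58 high, 9 intermediate and 25 low features in TA26. TA30 held the most intermediate features, 31 of 95, beside 41 high and 23 low ones. TA21 and TA27 came next, with 28 and 27 intermediate features. The level of the high features themselves also varied, with medians of 2.80 units in TA22 and 2.74 units in TA23, against 1.93 units in TA21 and 2.10 units in TA30. Features of at least 3 units numbered 63 of 885, against 778 of 21727 over the array. The 63 came from 7 of the 10 plates. TA22 held 19 of them and TA23 held 16, while TA27, TA29 and TA30 held 0.

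**Figure D2:**
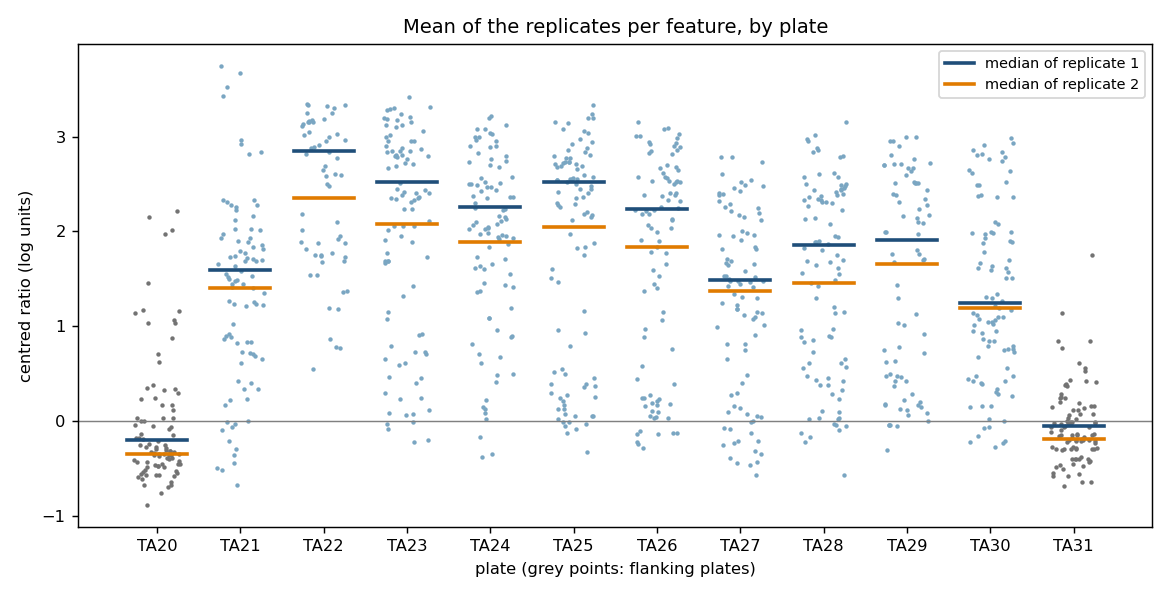
Centred ratio (vertical axis, log units) by plate (horizontal axis). Points are the mean of the replicates for each feature, blue in the block and grey in the plates on either side, and bars are the plate medians of each replicate. Medians of the mean lie between 1.17 and 2.60 units in TA21 to TA30, against -0.30 units in TA20 and -0.14 units in TA31.

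At its start, the block did not begin with the first well of TA21. The 11 measured wells of row TA21A had a median of -0.03 units, close to the -0.27 units of row TA20H, the last row before the block. Across that border, TA21A01 lay at 0.28 units in replicate 1 and 0.06 units in replicate 2, and TA20H12 before it at 0.03 and -0.61 units. The rise came in row TA21B, whose median was 1.27 units and in which limma called 10 of 11 wells above the median. Before the border, TA20 held a small separate island, TA20G09 to TA20G12, that reached 2.48 units in replicate 1 and 1.94 units in replicate 2 at TA20G11.

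The end of the block was abrupt. Row TA30G had a median of 2.49 units and row TA30H 2.37 units, against -0.04 units in row TA31A. The fall took place within row TA30H, where TA30H09 lay at 1.30 units and the next well at -0.22 units. TA30H12, the last well of the block, was back at 1.12 units in replicate 1 and 1.02 units in replicate 2, and TA31A01 after it lay at 0.33 and 0.07 units. The share of features past 1 unit in both replicates was 57.8% in TA21, against 9.89% in TA20, and 55.8% in TA30, against 2.08% in TA31.

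The high features were gathered in long domains. A run was counted as at least 3 consecutive wells of the same kind, ended by any other well or by a well without a value. There were 43 runs of high wells, which held 484 of the 524 high features (92.4%), and 18 high wells stood alone. Of these runs 18 had 10 wells or more and 3 had 20 or more. The longest ran over 57 wells from TA23E12 to TA24B08, with a mean of 3.06 units in replicate 1 and 2.53 units in replicate 2, and no well in it lay under 1.77 units. It was followed by 41 wells from TA24G07 to TA25B11 at 2.68 and 2.24 units, and by 37 wells from TA22C01 to TA22F01 at 3.07 and 2.54 units. The run means ranged from 1.61 to 2.94 units. The highest belonged to a compact domain of 13 wells, TA25D05 to TA25E05.

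Limma's call began at 0.42 units and so took in the intermediate wells too. The median length of its runs was 12 wells, against 9 for the high runs. Some runs did not change, such as TA24G07 to TA25B11 with 41 wells and TA22C01 to TA22F01 with 37. Of the 717 called features, 682 (95.1%) fell into 44 runs, of which 25 had at least 10 wells and 10 at least 20. The longest, TA23E11 to TA24B08, had 58 wells. It ended at a well without a value, TA24B09, beyond which the ratio was again 2.89 units. With such wells skipped, a way of counting chosen after the data were seen, the longest run had 147 measured wells, TA21D08 to TA23D04, and spanned the 32 wells of TA22 without a value. The domain from TA23E11 then reached 89 wells and ended at TA24E06. The lengths given for the runs are therefore lower limits wherever a well is missing, and only 12 of the 44 runs of called wells had a measured well on each side.

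Not all long domains were tall. The second longest run of called wells, 42 wells from TA27B02 to TA27E07, had a mean of 1.66 units in replicate 1 and 1.56 units in replicate 2. Its highest well was at 2.45 units. By contrast, the 41 wells from TA24G07 to TA25B11 stayed between 1.87 and 2.99 units with an SD over wells of 0.25 units. The runs of called wells had means between 0.77 and 2.80 units.

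Gaps of the same kind lay between the domains. With missing wells ending a run, the 192 low features formed 24 runs that held 168 of them (87.5%), with a longest length of 12 wells and a median length of 7, against 57 and 9 for the high runs. The longest gaps so counted were TA26C11 to TA26D10, at a mean of 0.04 units, and TA28H06 to TA29A05, at 0.10 units, each of 12 wells. With wells without a value skipped, the longest gap was TA26C11 to TA26E11, 23 measured wells at 0.09 units in replicate 1 and 0.04 units in replicate 2. The next was TA27F04 to TA27G11, 19 measured wells at -0.06 and -0.22 units. The longest high run then had 82 measured wells, TA23E12 to TA24D11. Where missing wells ended it, the longest stretch not called above by limma was TA25E07 to TA25F05, with 11 wells at 0.03 units in replicate 1 and 0.14 units in replicate 2. The stretch of TA28H06 to TA29A04 also had 11 wells, at 0.04 and 0.09 units. With such wells skipped, TA26D03 to TA26E11 was the longest, with 19 measured wells. Over the 24 low runs the means lay between -0.23 and 0.38 units, and the lowest was the stretch TA21A01 to TA21A08 that precedes the rise.

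Among all low wells of the block, the ratio was lower farther from the nearest high well in it. Low wells at 1 or 2 wells from a high one numbered 38 and had a median of 0.22 units. The 56 low wells at 3 or 4 wells had a median of 0.08 units, and the 98 at 5 wells or more had 0.04 units. The 98 included TA21A01 to TA21A08, at a mean of -0.23 units, which precede the rise and lie in no gap. The largest distance of a low well from a high well of the block was 18 wells, at TA21A01, before the rise and not in a gap. The 192 low features of the block had a median of 0.08 units, against -0.16 units for the low features of the whole array. Low features are defined by a limit on the same ratio, so this difference is given as a value only.

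Passages between domain and gap were short. Along unbroken wells, 36 passages led from a low to a high well or back. In 9 of them the high well was directly beside the low one, and in 17 there was 1 intermediate well between them. In 7 there were 3 or more, and the slowest passage, TA30A11 to TA30B08, took 8 intermediate wells. Going up the well order, 1 of 17 rises had 3 or more intermediate wells, and 6 of 19 falls did. This count was not tested, and the direction of the well order has no known meaning here.

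The sharpest edge was TA25B11 to TA25B12, where the mean ratio stood at 2.41 units in the first well and 0.05 units in the next. The step was -2.57 units in replicate 1 and -2.15 units in replicate 2. The steepest rise was TA26G03 to TA26G04, with steps of 2.05 and 2.09 units. Between consecutive wells the median absolute step was 0.22 units, and 12 of 843 steps were 1.5 units or more. All 12 of these, and all 39 steps of 1 to 1.5 units, had the same direction in both replicates. Among the 460 steps under 0.25 units, 60.2% did. In the mean over 8 high runs of at least 10 wells with measured wells on both sides, the ratio was 0.82 ± 0.44 units (SD over runs) in the well just outside, 1.97 ± 0.30 units in the first well inside, 2.47 ± 0.34 units in the second and 2.68 ± 0.26 units in the fifth. The limit of 1.5 units that defines a run sets the step at its edge.

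Intermediate features were only in part such edges. Of the 169, 82 lay beside a high well and 50 beside a low one, 17 beside both and 54 beside neither. A well without a value counted as neither high nor low. The 54 therefore include wells such as TA21B04, next to a well whose level is unknown. Between consecutive wells, 49 steps led from a high to an intermediate well and 43 from an intermediate to a high one. Direct steps numbered 3 from high to low and 6 from low to high. The intermediate features formed 21 runs of at least 3 wells. The longest, TA30A12 to TA30B07, had 8 wells at 1.09 units in replicate 1 and 1.06 units in replicate 2. Rows TA30D and TA30E carried further ones, such as TA30D09 to TA30E01 at 1.06 and 0.88 units. Row TA30E had a median of 0.80 units, with all of its wells between 0.40 and 1.17 units and 11 of 12 called above by limma.

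**Figure D3:**
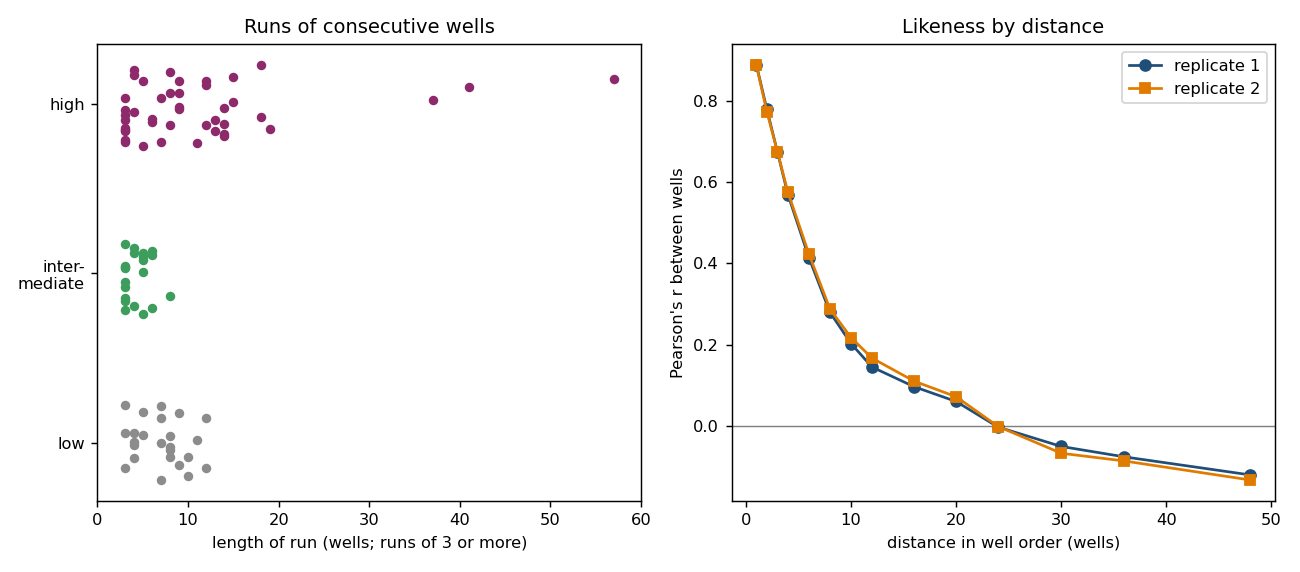
Left, length in wells (horizontal axis) of each run of at least 3 consecutive high, intermediate or low wells, where each point is a run and the vertical scatter has no meaning. Right, Pearson's r (vertical axis) between wells at a given distance in well order (horizontal axis), in each replicate. High runs reach 57 wells, intermediate runs 8 and low runs 12 where wells without a value end a run, and r is near 0 at 24 wells.

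The likeness of wells faded over a distance of about 2 plate rows. Pearson's r between a well and the next was 0.897 over 843 pairs, 0.888 in replicate 1 and 0.887 in replicate 2. It was 0.684 at a distance of 3 wells, 0.424 at 6, 0.157 at 12 and -0.002 at 24. These are descriptions over pairs that share wells, plates and arrays. The well below in the same plate column, which lies 12 wells later in the order, gave 0.111 over 732 pairs. Steps across the 8 measured plate borders inside the block had a median of 0.22 units, as did steps across row ends and steps within a row. By row the medians ran from 1.09 units in row E to 2.36 units in row H, and by column from 1.71 to 2.01 units.

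The 2 highest features stood side by side in TA21. TA21E04 had 4.33 units in replicate 1 and 3.17 units in replicate 2, and TA21E05 had 4.09 and 3.25 units. They ranked 2 and 5 among all features of the array. They lay in a run of 12 high wells, TA21D09 to TA21E08, that began at 2.13 units in replicate 1 and 2.21 units in replicate 2 and ended at 3.21 and 2.72 units. Directly after it TA21E09 was down at 1.18 and 1.32 units. By the mean of the replicates, TA21, a plate with a modest median, thus held the peak of the block. In replicate 2 alone, TA23F03 also reached 3.25 units, as high as TA21E05 and above TA21E04. Of the 100 highest features of the array, 11 came from the block. The block held 885 of the 21727 measured features and 524 of the 3574 high ones, and was chosen on these ratios. Nothing is read from this count.

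The 2 lowest features that lay below the median in both replicates were TA21A05, at -0.63 units in replicate 1 and -0.73 units in replicate 2, and TA28H03, at -0.43 and -0.70 units. TA21A05 belonged to the row that precedes the rise, between neighbours at -0.21 and -0.52 units. TA28H03 lay inside a gap of 8 wells, TA28G09 to TA28H04, between neighbours at -0.22 and 0.29 units.

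The replicates drew the same domains at different heights. Across the 885 features they correlated at a Pearson's r of 0.960 and a Spearman's rho of 0.963, where features are not independent replicates. The SD over features was 0.96 units in replicate 2 and 1.17 units in replicate 1, a ratio of 0.820. Replicate 2 lay below replicate 1 in 492 of the 524 high features (93.9%), by a median of -0.43 units. The difference, replicate 2 minus replicate 1, had a median of -0.07 units among features under 0 units, -0.03 units at 0 to 0.5 units and 0.05 units at 0.5 to 1 unit. From there it grew more negative with level, with -0.18 units at 1 to 1.5 units, -0.28 units at 1.5 to 2, -0.39 units at 2 to 2.5, -0.51 units at 2.5 to 3 and -0.59 units at 3 units and above. Over all features of the array in the same 8 ranges, from the lowest up, it was -0.11, 0.07, 0.09, -0.05, -0.28, -0.43, -0.51 and -0.56 units. The ratio of SDs was 0.913 in TA31 to TA36, 0.789 in TA37 to TA51, 0.816 in TC17 to TC30 and 0.894 over the array.

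**Figure D4:**
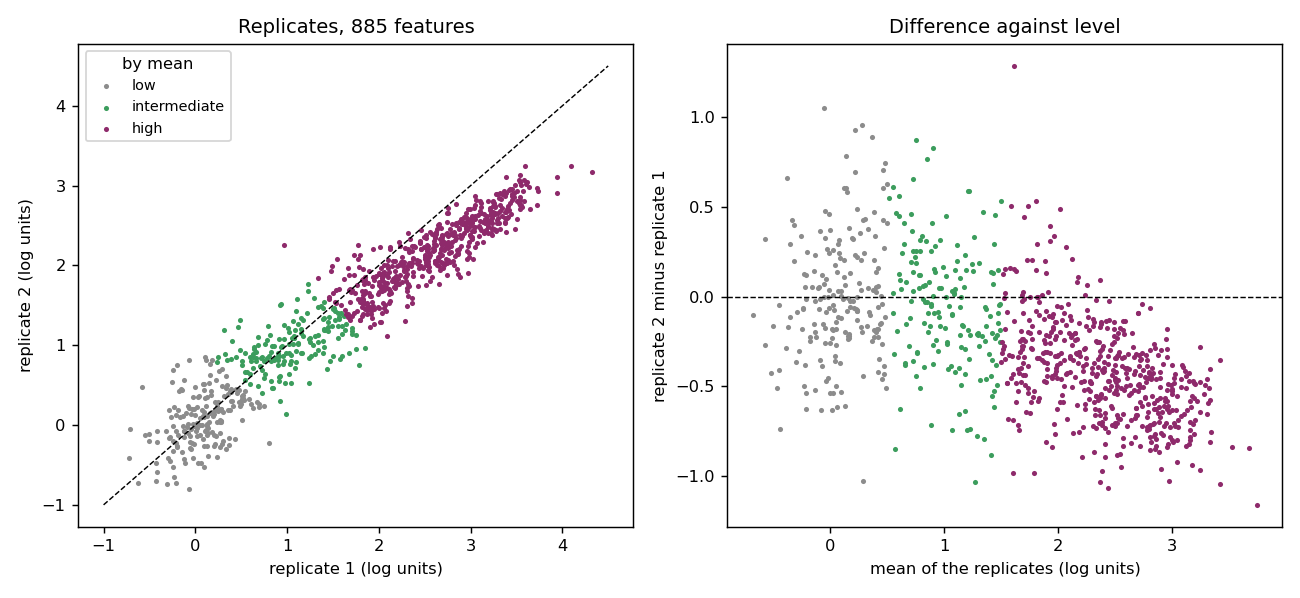
Left, replicate 2 against replicate 1 for the 885 features of TA21 to TA30 (log units), coloured by the band of their mean, with the line of equality. Right, replicate 2 minus replicate 1 against the mean of the replicates (log units). High features lie mostly under the line, by a median of -0.43 units, and the single point above 1.2 units is TA30G02.

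Among the low features the replicates were only loosely related, with a Pearson's r of 0.393 over 192 features, and among the intermediate features r was 0.447. Both groups were picked from a narrow range of the mean, which by itself lowers r. Under the same limits, r over the whole array was 0.538 among low and 0.447 among intermediate features. Among low features it was 0.565 in TA31 to TA36, 0.493 in TA37 to TA51 and 0.729 over the 16 of TC17 to TC30. Among intermediate features r in these parts was 0.626, 0.643 and 0.482. Why r was lower among the low features of the block was not tested. The feature with the largest excess of replicate 2 was TA30G02, named after its value was seen, at 0.97 units in replicate 1 and 2.26 units in replicate 2. Its neighbours TA30G01 and TA30G03 had means of 2.39 and 2.36 units, so the value of replicate 1 was the one out of line with them.

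Wells without a value were frequent in the block. Of its 960 wells 75 (7.81%) had none, 1 of them listed but empty and the others not in the table used here. In the other 89 TA plates 99 wells (1.16%) had none. The largest hole was TA22F02 to TA22H09, 32 wells in a row, with 1.95 units in the well before it and 1.69 units in the well after it. TA29 had 19 wells without a value, mostly single ones scattered over rows D to H. The 75 measured wells next to a well without a value had a median of 1.69 units and 54.7% of them were high, against 1.85 units and 59.6% for the others. Why these wells have no value is not given in the sources used here, and the ratios in them are unknown.

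Beside the other high blocks of the array, the plates TA21 to TA30 held more low features. The low share was 21.7%, against 5.77% in TA37 to TA51 and 1.44% in TC17 to TC30, and the high share 59.2% against 81.1% and 92.2%. The median of the high features was 2.41 units in TA21 to TA30, 2.73 units in TA37 to TA51 and 2.82 units in TC17 to TC30. In the plates that follow, TA31 to TA36, the low share was 65.6%, the intermediate share 19.6% and the high share 14.8%. There the median of the high features was 2.34 units. All these stretches were delimited on the same ratios, so these differences carry no test and nothing is called particular to TA21 to TA30.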

How the data were processed

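H3K9me2 ChIP-chip was analysed from 4 arrays, 2 dye-exchanged arrays for each of 2 preparations. The deposited values are treated as a score: a log-scale ratio of IP and input per feature. Per the labels' protocols, amplified DNA was labelled with Cy3 and Cy5 by a direct method. Not given in the sources used here are the platform, background correction, normalization, log base, direction and centring. The deposited column medians were -1.39 in replicate 1 and -1.15 in replicate 2. Of 21800 listed features 73 had no value. Columns of a replicate were averaged and each replicate centred on its median. The members, lists and limits were chosen with earlier results of these data known.

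limma 3.58.1 in R 4.3.3 tested the mean of the replicates against 0 and p-values were adjusted by Benjamini-Hochberg over 21727 features (limit 0.05). The calling step was first run on simulated data with independent, equal noise in both replicates. That run checked the code and does not show how accurate the calls are here. In the fit to the measured values, all features shared an SD of 0.26 units. Calls therefore began at 0.42 units above and -0.42 units below the median. Signal over background is unknown without intensities. Precision is limited by the number of arrays. Named features were the 2 highest and 2 lowest of the block, if both replicates lay on 1 side of the median, and the ends of runs and borders. Alternatives covered the centring, quantile normalization, the limits, well order by column and leaving out a replicate. Python 3.11.15, NumPy 2.4.6, SciPy 1.17.1 and pandas 2.3.3 were used. RefSeq genes could not be joined to the features, so no gene or sequence is given.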

Additional observations from a re-analysis of the deposited data

How the results depend on the processing

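Without centring, limma called 258 features of the block below, 266 passed 1 unit above 0 in both replicates, and the median was 0.55 units. Centred on the mode, 1 feature was called below and the median was 2.00 units. There were 3 calls below at an adjusted p under 0.01, and 0 with limma's treat against 0.5 units, where 0 had an unadjusted p under 0.05. With the sign turned there were 9 calls above, 717 below and 0 features past 1 unit. At 2 units or more in both replicates, 334 features remained. Calls above numbered 496 to 755 in the other settings. In well order by column there were 110 runs of called wells, the longest had 27 wells, and neighbouring wells correlated at 0.130. Runs of at least 10 wells numbered 25. With wells without a value skipped, an alternative chosen after the data were seen, there were 22 runs and the longest had 147 wells. The longest low run then had 23 wells, against 12, and the longest stretch not called above 19, against 11. The replicates correlated at 0.313 over features not called above, a narrow range, and the ratio of interquartile ranges was 0.728 against 0.820 for SDs. Leaving out a replicate gave 603 to 615 features of at least 1 unit, medians of 1.70 to 1.93 units and neighbour correlations of 0.887 to 0.888. It leaves no limma test, so runs were then counted over wells of at least 1 unit in the remaining replicate. There were 46 to 48 such runs, the longest of 57 to 58 wells. Without the plates TA22 and TA29, which miss the most wells, the median was 1.75 units and the neighbour correlation 0.895. No paired analysis was possible because there is a single group.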

Other observations

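The deviations between the replicates were shared by neighbouring wells. Over pairs of consecutive low wells, the difference of replicate 2 minus replicate 1 in a well correlated with that in the next at a Pearson's r of 0.528 (150 pairs). Over pairs of consecutive high wells r was 0.518 (452 pairs), and over pairs of intermediate wells 0.399 (84 pairs). Among high wells the difference also varied with level, which neighbours share, and r was not computed with level held fixed. The pairs share wells, plates and arrays, and the values are given as a description. Of the 24 low runs, 7 differed between the replicates by more than 0.25 units in their mean, 3 with replicate 2 higher and 4 with replicate 2 lower. The widest difference was in TA29A11 to TA29B08, 10 wells with a mean of -0.16 units in replicate 1 and 0.43 units in replicate 2. TA24G03 to TA24G06 came next, 4 wells at -0.37 and 0.19 units. In the opposite sense, TA27G03 to TA27G11 had -0.03 units in replicate 1 and -0.33 units in replicate 2 over 9 wells.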
